A study of Homo sapiens with 12 samples.

Results

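The enzymes that build cholesterol and fatty acids, and the proteins that sense and move sterols, were followed across RNA-seq libraries of MDA-MB-231-ERβ cells. The 36 genes were chosen by name, with earlier results of these data known. All 36 were found among the 12451 entries of the deposited count table, and all 36 were among the 11303 genes tested. They comprise 18 genes of sterol synthesis, 8 of sterol sensing and transport, and 10 of fatty acid synthesis, desaturation, elongation and activation.

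MDA-MB-231 is a triple negative breast cancer (TNBC) line. MDA-MB-231-ERβ is its derivative that makes full-length human estrogen receptor beta (ERβ) when doxycycline (dox) is given, so that ERβ comes from a transgene and not from the cells' own locus. All groups had dox, which the labels name for every group but E2 + TNFα and the study's methods give for that one too. Cells received ethanol vehicle or 1 nM estradiol (E2) for 5 days, and 20 ng/ml TNFα, an inflammatory cytokine, was given to 2 of the 4 groups over the last 3 h. Each group (vehicle, TNFα, E2 and E2 + TNFα) has 3 libraries. The cells were plated in triplicate, and p-values therefore measure the spread between such dishes.

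As background, cells make cholesterol from acetyl-CoA through mevalonate, isoprenoid diphosphates, squalene and lanosterol. When membrane sterol is low, SCAP carries the precursors of the SREBP transcription factors (genes SREBF1 and SREBF2) from the endoplasmic reticulum to the Golgi, where they are cleaved and released to switch on the synthesis genes. When sterol is plentiful, INSIG1 and INSIG2 hold SCAP back. SREBF1 products act mainly on fatty acid genes, and SREBF2 products mainly on sterol genes.

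Reads assigned to genes came to 7.65 to 39.94 M (mega) per library. Depth differed by group, at 35.77 to 39.94 M in vehicle, 19.5 to 30.5 M in TNFα, 7.65 to 15.76 M in E2 and 16.79 to 36.73 M in E2 + TNFα. The vehicle libraries stood apart from the other 9 on the first principal component, which held 68.7% of the variance, and the second (19.6%) set the TNFα libraries apart. Expression in the vehicle libraries also ran with base composition: when genes were ranked by exon GC content, the median of the fifth highest in GC minus that of the fifth lowest in GC, on the log2 scale, was -2.2 to -1.6 in vehicle and -0.0954 to 1.26 in the other libraries. Within their groups, E2 replicate 2 (1.26) and E2 + TNFα replicate 3 (1.14) were the most GC-rich. Which libraries shared a batch is not given in the sources used here, so for vehicle a batch and the treatment cannot be told apart. The same limit holds for the other groups, among them TNFα, which enters the first comparison below. As the vehicle libraries stood apart on the first component, the 2 comparisons that leave vehicle out are given first. Markers of the line were abundant, with VIM at 1046 to 1668 CPM (reads of a gene per 1e6 reads assigned to genes, TMM scaled) and COL1A1, a fibroblast collagen, at 3.44 to 12.6 CPM. The epithelial cadherin CDH1 was at 1.78 to 3.56 CPM without E2 and at 32.4 to 53.6 CPM with it, and its part in the results was not tested.

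Per kilobase of exon, the genes covered a wide range. SCD, the desaturase that makes oleate, was the highest, with a mean of 474.4 RPKM (CPM divided by exon length in kilobases) in E2. STARD4, a cytosolic cholesterol carrier, was the lowest in the same group with 1.228 RPKM. SC5D, the lathosterol oxidase, had a mean under 1 RPKM in TNFα (0.8397). The lowest count of any of the 36 genes in any library was 40, for STARD4.

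**Figure D1:**
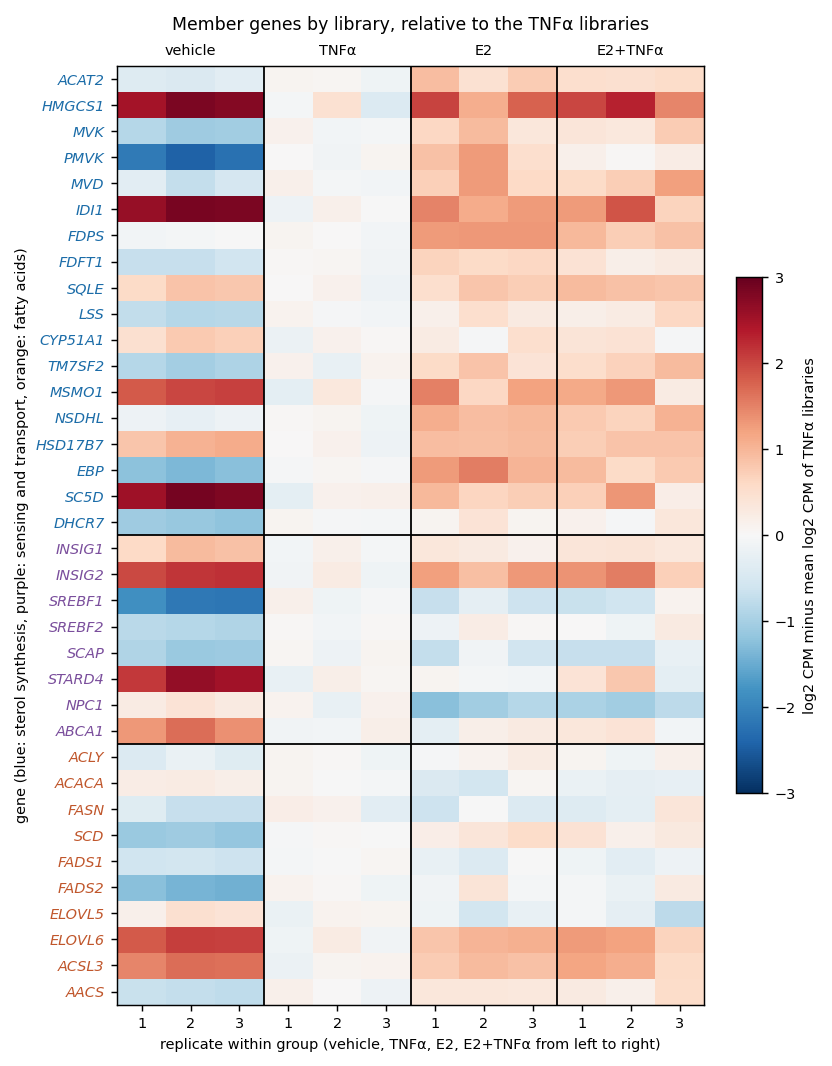
Log2 CPM of the 36 genes (rows, named in blue for sterol synthesis, purple for sensing and transport, orange for fatty acids) in each of the 12 libraries (columns), minus the mean of the 3 TNFα libraries. The sterol rows are mostly red across E2 and E2 + TNFα, while the vehicle columns hold both the strongest reds (HMGCS1, IDI1, SC5D) and the strongest blues (PMVK, SREBF1).

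The first comparison, E2 + TNFα against TNFα, asks what 5 days of E2 changed in cells that also had TNFα. Sterol synthesis was higher along nearly its whole length. Calls here mean an adjusted p no higher than 0.1. Of its 18 genes, 15 rose and 0 fell, and all 18 fitted log2 fold changes were above 0. Their median was 0.8, against 0.0419 over all genes tested. Of all genes tested, 24.4% rose, 21% fell and 45.3% were called in either direction. At the thresholds of the study (absolute log2 fold change of at least 1.5, p under 0.05 and the same adjusted p), 1 of the 36 genes was called, HMGCS1, which rose. Of all genes, 3.55% rose and 2.01% fell past them, together 5.56%.

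HMGCS1 (chromosome 5, 43287470 to 43313512, hg38, minus strand) encodes the cytosolic HMG-CoA synthase at the entry to the mevalonate pathway. It was at 11.64, 16.55 and 9.088 CPM in the TNFα libraries and at 48.38, 59.67 and 33.11 CPM in the E2 + TNFα libraries. The lowest E2 + TNFα library was above the highest TNFα library. The fitted difference was 1.92 ± 0.261 (log2, SE), or 3.78-fold, with an adjusted p of 3.75e-05. FDPS (chromosome 1, 155308748 to 155320666, plus strand), the farnesyl diphosphate synthase at the branch to sterols and prenyl groups, was at 189.1, 181.0 and 170.4 CPM in TNFα and at 351.1, 302.1 and 330.0 CPM in E2 + TNFα. These groups were far apart for the spread within them, and FDPS had the smallest adjusted p of the 36 genes (6.41e-06, log2 fold change 0.87 ± 0.0993). NSDHL (chromosome X, 152830967 to 152869363, plus strand), a dehydrogenase that removes methyl groups from the sterol ring, went from 58.34, 60.04 and 52.13 to 98.38, 90.53 and 116.4 CPM, again without overlap (0.85 ± 0.118, adjusted p = 4.68e-05).

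**Figure D2:**
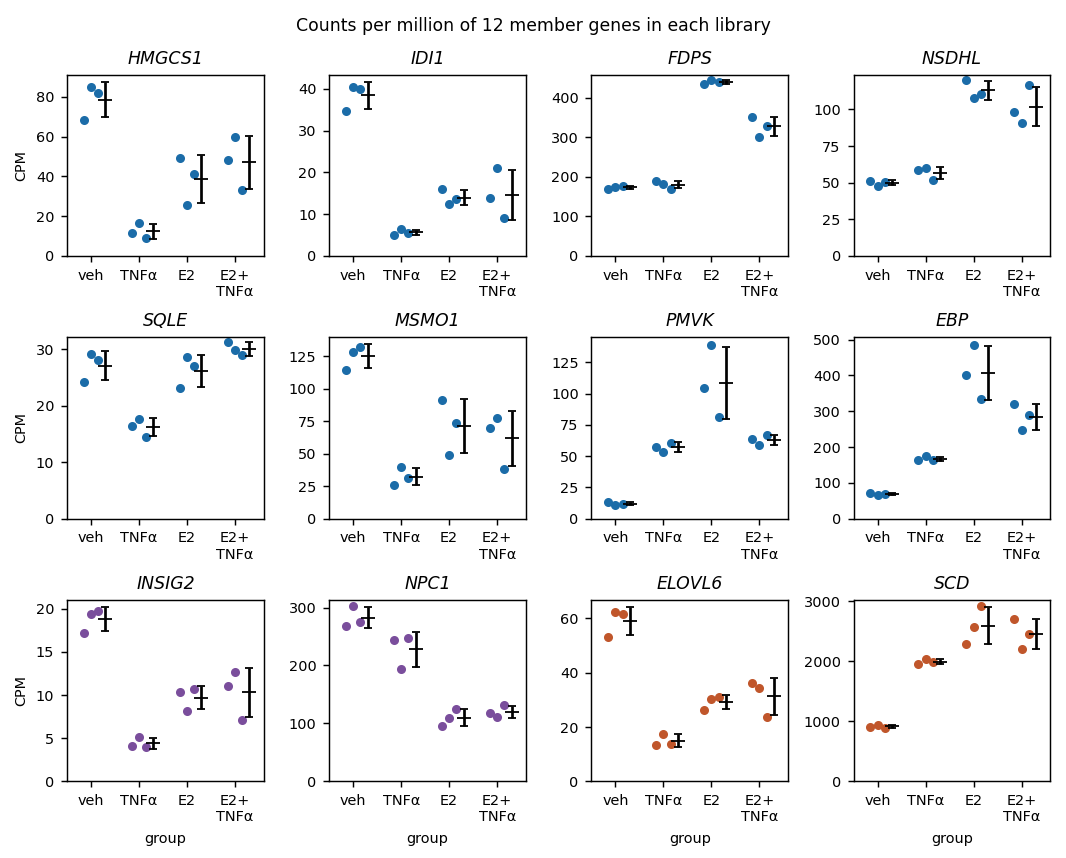
CPM in each library for 12 of the genes, by group (veh, vehicle), with the mean and SD of 3 libraries beside the points and each axis starting at 0. HMGCS1, IDI1, FDPS, NSDHL, SQLE, EBP, INSIG2, ELOVL6 and SCD lie higher in every E2 + TNFα library than in any TNFα library. NPC1 lies lower, and MSMO1 and PMVK overlap. The vehicle libraries take the highest or the lowest place for most genes.

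The other enzymes of the mevalonate arm moved by unequal amounts. IDI1, the isopentenyl diphosphate isomerase, had 5.093, 6.325 and 5.589 CPM in TNFα and 13.74, 20.94 and 9.019 CPM in E2 + TNFα (1.37 ± 0.243, adjusted p = 0.000445). MVD, the mevalonate diphosphate decarboxylase, rose by 0.88, ACAT2, the thiolase that makes acetoacetyl-CoA, by 0.51, and MVK, the mevalonate kinase, by 0.50 (log2). PMVK, the kinase between MVK and MVD, differed by 0.15 with an adjusted p of 0.508 and a 95% interval of -0.197 to 0.487, so the step between 2 genes that rose was not itself called.

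Past FDPS, the genes that commit carbon to sterols also rose. Squalene synthase (FDFT1) gained 0.30, lanosterol synthase (LSS) 0.36, and squalene epoxidase (SQLE) 0.89. SQLE, a rate-limiting oxygenase named here after its values were seen, was at 16.4, 17.73 and 14.52 CPM in TNFα and at 31.31, 29.92 and 28.95 CPM in E2 + TNFα, with no overlap and an adjusted p of 0.000137. Among the enzymes that trim lanosterol to cholesterol, MSMO1 (methylsterol oxidase) rose by 0.94, SC5D by 0.82, HSD17B7 (a ketosteroid reductase) by 0.82, EBP (the sterol isomerase) by 0.78 and TM7SF2 (a sterol reductase) by 0.73. MSMO1 rose although its libraries overlapped, at 26.13, 39.39 and 31.23 CPM in TNFα and 69.92, 77.74 and 37.82 CPM in E2 + TNFα, the last being the GC-rich replicate 3. CYP51A1, the lanosterol demethylase (0.27, adjusted p = 0.185), and DHCR7, a reductase of the last steps (0.16, adjusted p = 0.344), were not called.

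Genes that sense and move sterols did not share a direction. Of 8, 2 rose, 2 fell and 4 were not called, with a median of 0.149. These counts lie near the shares of all genes, of which 24.4% rose and 21% fell. INSIG2 rose from 4.068, 5.145 and 3.97 CPM to 11.08, 12.72 and 7.162 CPM (1.23 ± 0.221, adjusted p = 0.00048), and INSIG1 rose by 0.36 (adjusted p = 0.028). SCAP fell by 0.51 (adjusted p = 0.0239). NPC1, which exports cholesterol from lysosomes and was singled out after its values were seen, was at 243.6, 193.7 and 247.4 CPM in TNFα and at 117.8, 110.4 and 131.7 CPM in E2 + TNFα. Every E2 + TNFα library was below every TNFα library, and the fitted change was -0.92 ± 0.132 (adjusted p = 5.94e-05). The transcription factor genes were not called, with SREBF2 at 0.06 (95% interval -0.204 to 0.331) and SREBF1 at -0.35 (-0.742 to 0.0475). STARD4 (0.37) and the lipid exporter ABCA1 (0.24) were not called either.

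Fatty acid genes split into 4 that rose and 6 that were not called, where 24.4% of all genes rose and 21% fell. Their median, 0.034, lay near that of all genes. ELOVL6, the elongase of saturated fatty acids, rose by 1.07 and ACSL3, an acyl-CoA synthetase, by 0.97 (adjusted p = 0.000168 and 0.000177). ELOVL6, again chosen after its values were seen, was at 13.53, 17.63 and 13.79 CPM in TNFα and at 36.26, 34.29 and 23.55 CPM in E2 + TNFα. AACS, which activates acetoacetate for lipid synthesis, rose by 0.33 (adjusted p = 0.0417) and SCD by 0.31 (adjusted p = 0.0521). The core enzymes were not among them. ACLY, which makes cytosolic acetyl-CoA, differed by 0.04 (95% interval -0.208 to 0.294), the carboxylase ACACA by -0.24 (-0.522 to 0.0418) and the synthase FASN by -0.08 (-0.511 to 0.359). The polyunsaturated fatty acid desaturases FADS1 and FADS2 (-0.20 and 0.03) and the elongase ELOVL5 (-0.34) were not called.

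Of the 36 genes, 20 were higher and 4 lower in every E2 + TNFα library than in any TNFα library, against 23.4% of all genes in each direction. With vehicle left out of the fit, 15 of the 18 sterol genes still rose (39.7% of all genes were called in either direction). With any 1 of the 6 compared libraries left out, 13 to 15 did (35.2% to 51.3%). With each library's trends with exon GC content and gene length removed, 16 rose, where 60.2% of all genes were called. In that fit HMGCS1 rose by 1.66 and the fall of NPC1 was -0.98. Of the 36 genes, 22 rose and 6 fell in it, against 2 that fell as counted. Over 17 alternative fits, ACACA, FADS1 and ELOVL5 were called lower in 3 each and SREBF1 in 5. Some rises rested on single libraries. FDFT1 lost its call without TNFα replicate 3 or E2 + TNFα replicate 1, SC5D without E2 + TNFα replicate 2, and INSIG1 without TNFα replicate 1. LSS and AACS lost theirs without TNFα replicate 2 or 3 or E2 + TNFα replicate 3, and SCD without any 1 TNFα library or E2 + TNFα replicate 1. Without E2 + TNFα replicate 3, the GC-rich one, CYP51A1, SREBF1, STARD4 and ABCA1 were called as well.

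**Figure D3:**
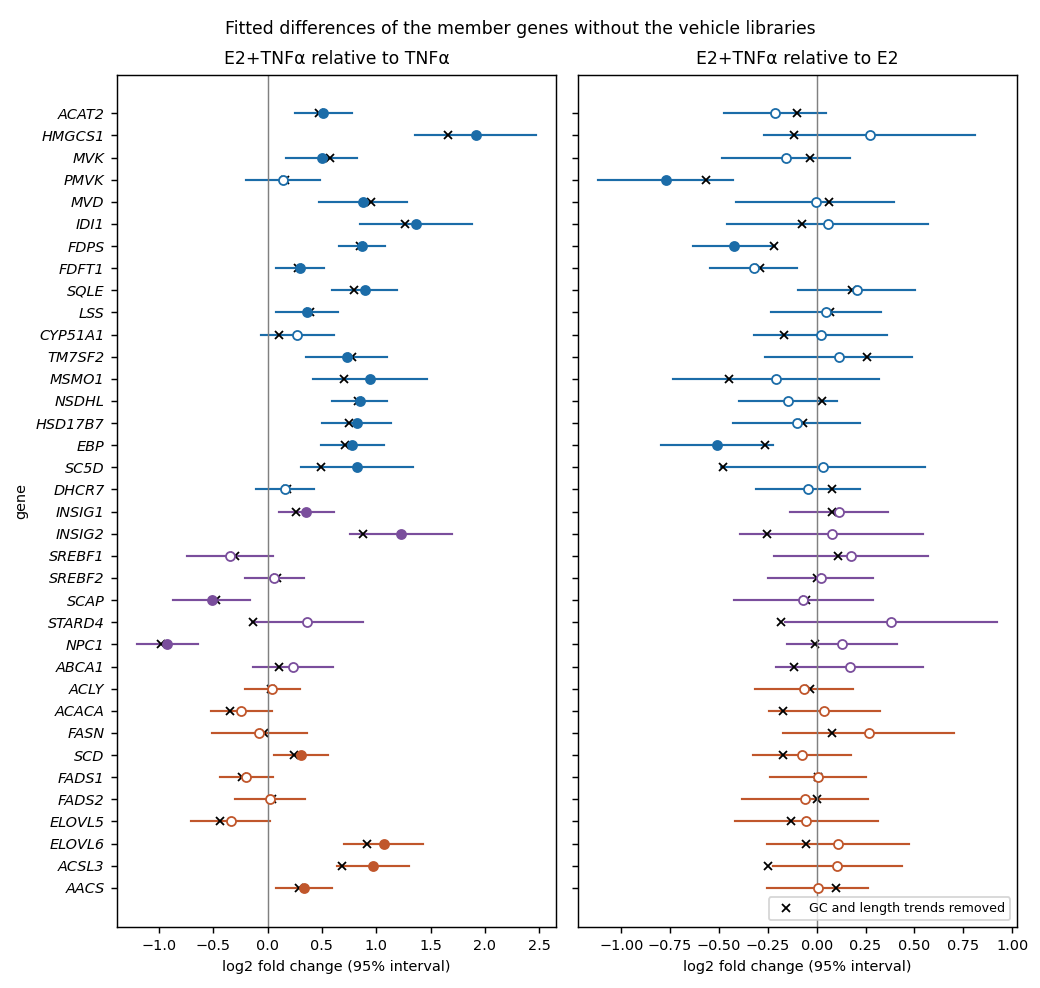
Fitted log2 fold changes (points, filled where the adjusted p was at most 0.1) with 95% intervals for the 36 genes, E2 + TNFα against TNFα on the left and against E2 on the right. Black crosses give the values with GC and length trends removed. The sterol genes (blue) lie right of 0 on the left side, and on the right side only PMVK, EBP and FDPS are filled, left of 0.

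As most sterol synthesis genes rose together, the 250 bases before the RefSeq start (GRCh38.p14) of the 36 genes were searched on both strands for the core of the sterol regulatory element (TCACNCCAC), to which SREBPs bind, the CCAAT box (CCAAT) and the full palindromic estrogen response element. A promoter entry matched for 32 of the 36 genes. CCAAT was in 14 of 18 promoters (77.8%) of genes that rose in E2 + TNFα against TNFα and in 5 of 14 (35.7%) of the other genes. Among sterol synthesis genes, called or not, it was in 12 of 15 (80.0%). Of the 21 genes that rose, 15 are sterol synthesis genes, so this split cannot tell the response from the pathway. The box was counted by presence only. It was in 35.38% of the promoters of genes tested and in 33.04% of all 27305 promoters. The sterol element in this spelling was in 1 promoter, that of SREBF2 (0.88% of all promoters), and the estrogen response element was in 0 (0.04% of all). With so rare a motif, 0 matches in 32 promoters carry no information on estrogen elements at these genes. The study placed most ERβ binding sites far from transcription starts, outside the 250 bases searched. A match is a description of the letters only.

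Below are the stretches before any annotated start for 4 genes that rose, chosen because each has several boxes or belongs to the genes given in full above, and for SREBF2. Boxes on either strand (CCAAT or ATTGG) are in capitals, as is the sterol element of SREBF2, and overlapping boxes run together. HMGCS1 lies at chr5:43313513-43313662 (minus strand), MVD at chr16:88663162-88663341 (minus strand), NSDHL at chrX:152830813-152830966, MSMO1 at chr4:165327419-165327665 and SREBF2 at chr22:41832855-41833078 (plus strand for these 3).
HMGCS1: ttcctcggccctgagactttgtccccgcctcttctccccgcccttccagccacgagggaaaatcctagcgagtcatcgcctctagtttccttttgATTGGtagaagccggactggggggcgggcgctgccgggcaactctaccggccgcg
MVD: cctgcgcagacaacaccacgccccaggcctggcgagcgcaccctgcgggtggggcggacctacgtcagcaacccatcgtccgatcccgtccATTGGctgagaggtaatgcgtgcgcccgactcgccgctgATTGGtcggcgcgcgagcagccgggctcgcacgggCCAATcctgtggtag
NSDHL: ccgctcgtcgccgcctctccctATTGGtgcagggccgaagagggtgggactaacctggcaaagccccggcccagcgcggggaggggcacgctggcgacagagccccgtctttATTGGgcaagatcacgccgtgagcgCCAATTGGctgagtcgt
MSMO1: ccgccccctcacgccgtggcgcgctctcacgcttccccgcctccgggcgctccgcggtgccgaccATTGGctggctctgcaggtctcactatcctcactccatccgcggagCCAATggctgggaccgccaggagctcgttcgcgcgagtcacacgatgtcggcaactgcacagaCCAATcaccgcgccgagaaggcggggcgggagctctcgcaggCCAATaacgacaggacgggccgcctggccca
SREBF2: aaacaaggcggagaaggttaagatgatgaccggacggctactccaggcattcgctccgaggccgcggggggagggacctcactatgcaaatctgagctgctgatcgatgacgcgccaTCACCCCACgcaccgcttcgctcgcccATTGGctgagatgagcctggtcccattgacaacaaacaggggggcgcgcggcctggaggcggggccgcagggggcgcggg

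The second comparison, E2 + TNFα against E2, asks what the last 3 h of TNFα changed in cells that had E2, and it shares the E2 + TNFα libraries with the first. None of the 36 genes passed the thresholds of the study, which 0.389% of all genes did upward and 0.0177% downward (0.407% in all). On the adjusted p alone in the edgeR test, 0 rose and 3 fell, where 2.65% and 3.34% of all genes did, and 6% in either direction. All 3 that fell are sterol synthesis genes. PMVK (chromosome 1, 154924732 to 154937310, minus strand) was at 104.4, 138.6 and 81.57 CPM in E2 and at 63.42, 58.62 and 66.88 CPM in E2 + TNFα (-0.77 ± 0.162, adjusted p = 0.0248). EBP (chromosome X, 48521776 to 48528716, plus strand) was at 400.9, 485.5 and 335.2 CPM in E2 and at 319.1, 247.3 and 288.8 CPM in E2 + TNFα (-0.51 ± 0.134, adjusted p = 0.058). FDPS was at 434.7, 445.1 and 441.2 CPM in E2, above all E2 + TNFα libraries (-0.42 ± 0.0988, adjusted p = 0.0385). Over the 36 genes, 1 was higher and 5 were lower in every E2 + TNFα library than in any E2 library. Of all genes, 5.98% and 9.45% were (15.4% in all). The 3 called genes are among those 5.

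These 3 calls were lost more easily than those above. Without E2 + TNFα replicate 2 none of the 36 genes was called, where 1.15% of all genes were. Without E2 replicate 1 only PMVK was called, where 1.27% of all genes were. With only the 6 libraries of the comparison in the fit, 0 were called, against 0.761% of all genes. The other 33 genes had fitted differences of -0.32 to 0.38. Among them the 95% intervals reached from -0.735 to 0.808 for sterol synthesis, from -0.424 to 0.921 for sensing and transport and from -0.417 to 0.702 for fatty acid genes, these being the outermost bounds of any gene not called, and many genes had narrower ones. HMGCS1, which had the highest such bound of the sterol genes, was at 49.43, 25.55 and 41.15 CPM in E2, which overlaps its E2 + TNFα values (0.27, 95% interval -0.268 to 0.808).

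E2 against vehicle and TNFα against vehicle ask what each agent did alone, and here 81.8% and 81.9% of all genes were called on the adjusted p. The thresholds of the study were passed by 30.5% and 26.7%. Of the 36 genes, 19 rose and 14 fell with E2, where 40.1% and 41.7% of all genes did. With TNFα, 18 rose and 15 fell, against 40.3% and 41.6% of all genes. Those that rose with E2 had an exon GC content of 47.4% to 64.3%, and those that fell 34.4% to 48.9%. Spearman's rho between fold change and GC content was 0.8 over the 36 genes and 0.66 over all genes for E2, and 0.85 and 0.71 for TNFα. These are descriptions across genes, which share the libraries. The shift with GC cannot be told apart from the treatments here, and the values named below are therefore also given after removal of the GC and length trends. In that fit 9 of the 33 genes called with E2 and 7 of the 33 called with TNFα turned direction. With an unwanted factor from housekeeping genes in the fit, 4 of the 36 genes were called on the adjusted p in each comparison (11.6% and 16% of all genes).

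**Figure D4:**
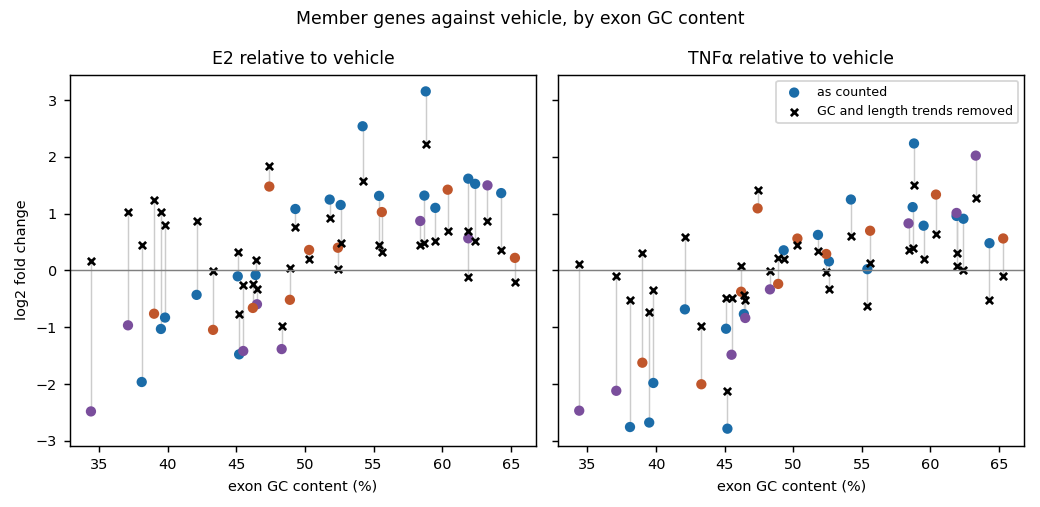
Log2 fold change against vehicle (E2 left, TNFα right) by exon GC content for the 36 genes. Coloured dots are the counts as deposited and rise from left to right. Black crosses, joined to them by grey lines, have GC and length trends removed. Of the genes called as counted, 9 cross 0 with E2 (HMGCS1 from -1.03 to 1.04) and 7 with TNFα.

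With E2, 4 genes rose and 2 fell past the thresholds, as 9.87% and 20.6% of all genes did. PMVK was at 13.12, 10.57 and 12.02 CPM in vehicle and 104.4, 138.6 and 81.57 CPM in E2, an 8.9-fold rise (3.15 ± 0.175, adjusted p = 1.31e-09), and its value after trend removal was 2.23. EBP was at 70.63, 65.41 and 70.23 CPM in vehicle, under all 3 E2 libraries (2.54 ± 0.142, and 1.58 after trend removal). Both rises were above 1.5 in these 2 fits. Over 16 alternative fits the lowest value was 1.87 for PMVK and 1.38 for EBP, which is under 1.5. MVK went from 41.92, 36.45 and 37.32 to 118.2, 146.8 and 97.07 CPM, and TM7SF2 from 7.344, 6.545 and 6.969 to 19.87, 24.11 and 17.49 CPM. Neither overlapped between the groups, but their fold changes as counted (1.62 and 1.53) became 0.69 and 0.53 after trend removal. The 2 genes that fell, STARD4 (-2.48 as counted) and SC5D (-1.96), are the GC-poorest and the third GC-poorest of the 36, and had 0.17 and 0.45 after trend removal. As counted, STARD4 was at 28.83, 41.31 and 38.1 CPM in vehicle and 7.013, 6.388 and 6.254 CPM in E2, and SC5D at 34.65, 43.32 and 41.38 and at 11.76, 9.262 and 9.879 CPM. After trend removal 3 genes passed the thresholds (PMVK, EBP and SCD), as 13.9% of all genes did. SCD, added here after its values were seen, was at 914.6, 945.1 and 885.4 CPM in vehicle and 2296, 2569 and 2917 CPM in E2, and its rise was 1.48 as counted and 1.84 after trend removal.

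HMGCS1 showed how far a value against vehicle can turn. As counted, it was at 68.44, 85.16 and 81.77 CPM in vehicle and lower in E2 (-1.03 ± 0.253, adjusted p = 0.00162). After trend removal it was at 29.33, 28.13 and 29.26 CPM in vehicle and 71.59, 48.78 and 57.6 CPM in E2, higher by 1.04 (adjusted p = 8.14e-06). Over the 18 sterol genes, 11 rose and 5 fell with E2 as counted, and 16 rose and 1 fell (IDI1, -0.77) after trend removal, where 77.3% of all genes were called. E2 against vehicle shares no library with E2 + TNFα against TNFα.

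With TNFα, 2 genes rose and 8 fell past the thresholds as counted, as 6.64% and 20% of all genes did. IDI1 went from 34.74, 40.5 and 39.96 CPM in vehicle to 5.093, 6.325 and 5.589 CPM in TNFα (-2.79 ± 0.248, adjusted p = 1.62e-07). After trend removal it was the 1 gene of the 36 past the thresholds (-2.12), where 10.5% of all genes passed, and with the unwanted factor it was at -0.97 (adjusted p = 0.161). The fitted change of HMGCS1 was -2.68 as counted and -0.74 after trend removal, that of SC5D -2.76 and -0.52, and that of INSIG2 -2.12 and -0.09. SC5D was at 4.895, 6.555 and 6.581 CPM in TNFα, and INSIG2 at 17.22, 19.38 and 19.78 CPM in vehicle, each far from the other group as counted. STARD4 was at 28.83, 41.31 and 38.1 CPM in vehicle and 5.656, 7.44 and 6.842 CPM in TNFα, a change of -2.47 that became 0.12 after trend removal. PMVK, at 57.68, 53.06 and 60.9 CPM in TNFα, rose by 2.24 as counted and 1.499 after it, and SREBF1 by 2.02 and 1.28. The other falls as counted were MSMO1 (-1.98, and -0.35 after trend removal), ELOVL6 (-2.004 and -0.98) and ACSL3, which turned from -1.62 to 0.31. SCD was at 1954, 2034 and 1984 CPM in TNFα, and its rise over vehicle was 1.09 as counted and 1.42 after trend removal.

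Whether the E2 difference depended on TNFα was tested as the interaction, the E2 difference with TNFα minus that without it, which again rests on vehicle. As counted, 12 of the 36 genes passed the thresholds, 9 above 0 and 3 below, against 22.5% and 9.29% of all genes (31.8% in all). On the adjusted p, 14 were above 0 and 17 below, against 39% and 37.6% (76.6% in all). After trend removal 3 passed, IDI1 (2.04), PMVK (-2.07) and SCD (-1.60), where 13.8% of all genes did. With the unwanted factor PMVK was the 1 gene that passed (-1.84), where 5.72% of all genes did, and IDI1 was at 0.29 (adjusted p = 0.807) and SCD at -0.79 (adjusted p = 0.264). For PMVK the E2 difference was thus smaller with TNFα in all 3 fits.

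Genes of the same pathways outside the 36 were counted in lists. In E2 + TNFα against TNFα, 24.4% of all genes rose and 21% fell (45.3% in all). Of 17 other genes of sterol sensing, LXR signalling and transport, 1 rose and 6 fell, with a median of -0.153. The largest differences were in the lipoprotein receptor SCARB1 (-0.65, adjusted p = 0.00529) and the sterol reductase LBR (-0.63, adjusted p = 0.0248). Of 10 genes of the isoprenoid branch, 2 rose and 1 fell, with a median of -0.0528 and the methyltransferase ICMT at 0.70 (adjusted p = 8.64e-05). Of 20 other fatty acid and glycerolipid genes, 5 rose and 3 fell, with a median of 0.0555. LIPE, the hormone-sensitive lipase, fell by 1.21 (adjusted p = 0.0012) and HACD2, a dehydratase of fatty acid elongation, rose by 0.96 (adjusted p = 0.00844). In E2 + TNFα against E2, 1 gene of these lists was called, the farnesyltransferase subunit FNTB (-1.02, adjusted p = 0.061). Of all genes, 6% were called there.

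Reads of some of these genes can belong to other loci. Copies of at least 200 bases elsewhere in hg38 were found for 11 of the 36 genes, among them HMGCS1, IDI1, FDPS, MSMO1, SC5D, SCD and HSD17B7, whose spliced copy on chromosome 10 matches 1727 bases at 98.7% identity. Exons of 12 genes overlap another annotated gene, nearly always on the opposite strand, as for FDPS with RUSC1-AS1 (35.7% of its exon bases) and ACAT2 with TCP1 (23.78%). The libraries were stranded, but the strand setting of the counting and its treatment of reads with several matches are not given in the sources used here, so these values are uncertain to that extent. Of the 8 sterol genes with neither a copy nor an overlap, 6 rose in E2 + TNFα against TNFα.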

How the data were processed

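The study measured mRNA by stranded paired-end RNA-seq of 12 libraries. Per the labels and the submitters' processing notes, the authors aligned reads to hg38 with TopHat2 2.1.0 and used featureCounts to assign them to genes. What the authors deposited are whole-number counts per gene without normalization, together with each gene's exon length as another column, and the RUVseq batch correction of the study's methods is not in them. Its gene list and batches are not given in the sources used here.

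Of 12567 entries, 46 repeated another in full and 70 gave a second symbol to the same locus with the same counts. They were dropped, leaving 12451. Genes with at least 1 RPKM in at least 3 libraries (11303) were tested in edgeR 4.0.16 (R 4.3.3) by quasi-likelihood, with TMM normalization, 4 group means in 1 fit and Benjamini-Hochberg adjustment over all genes tested. Base composition and length were computed from the entries' exons in hg38, and each library's loess trends (span 0.3) were removed through offsets as an alternative. Copies were sought with minimap2 2.31 (at least 90% identity for intronless and 95% for spliced copies). The steps were tested on simulated data.

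The genes, lists, motifs and alternatives were chosen with earlier results of these data known. Values per library were given for genes past the thresholds (at most 6 of largest change), or for the 3 smallest adjusted p where fewer than 3 passed. SQLE, MSMO1, INSIG2 and ELOVL6 (against TNFα), IDI1, NPC1, and SCD and HMGCS1 against vehicle were added after their values were seen. The variance between replicates of a group was 10.1 to 71 times that of counting error (chi-square per degree of freedom), so no libraries were merged. Library totals went down to 7.65 M reads, and the effect of depth on the calls was not tested. Library totals, DESeq2 1.42.0, other filters, an unwanted factor from 20 housekeeping genes computed as in RUVg, a replicate block, the 2 compared groups alone and each library left out were the other alternatives. Leaving vehicle out of the fit and restricting sterol genes to those without copy or overlap were added after seeing the data. Of the markers fixed for other cell types and hormone receptors, those not given in the text were not analysed here, except CD44, AXL and KRT18, which were abundant, and GATA3, at 3.67 to 14.6 CPM.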

Additional observations from a re-analysis of the deposited data

Results flagged for a closer look

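For 12 genes the E2 difference with TNFα differed from that without it past the thresholds in the interaction test of edgeR, each with 3 libraries in each of the 4 groups. The interaction (log2) was above 0 for HMGCS1 (2.95, adjusted p = 6.3e-06), STARD4 (2.85, 6.06e-06), IDI1 (2.84, 5.19e-06), SC5D (2.79, 6.21e-06), INSIG2 (2.20, 2.12e-05), ELOVL6 (2.11, 3.3e-06), MSMO1 (1.77, 0.000379), ACSL3 (1.73, 8.19e-06) and ABCA1 (1.65, 3.37e-05). It was below 0 for PMVK (-3.01, 1.73e-07), SREBF1 (-1.85, 2.39e-05) and EBP (-1.76, 2.28e-06). The genes above 0 at an adjusted p of at most 0.1 had an exon GC content of 34.4% to 48.3%, and those below 0 had 47.4% to 63.3%. Over all genes tested, 31.8% passed the thresholds. After removal of the GC and length trends, IDI1 (2.04) and PMVK (-2.07) were the 2 of these 12 that still passed, and with the unwanted factor PMVK (-1.84) was the 1 that did.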

How the results depend on the processing

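The count of sterol synthesis genes that rose in E2 + TNFα against TNFα was 15 or 16 in the fits with all 12 libraries. Those fits called 40.7% to 60.2% of all genes in either direction. The count was 13 to 15 with 1 library left out (35.2% to 51.3%), and 6 when only the 8 genes without copy or overlap were counted. The other values rest on more. In E2 + TNFα against TNFα, 2 genes passed the thresholds of the study with the unwanted factor and 1 to 2 with a library left out (2 without E2 + TNFα replicate 3), and 19 to 25 passed the adjusted p. In E2 + TNFα against E2, the count past the adjusted p was 1 with the replicate block (2.12% of all genes). It was also 1 with the unwanted factor (6.83%) or with vehicle left out (1.77%), and 0 with the 2 groups alone (0.761%). With a library left out it was 0 to 4 (1.15% to 14.7% of all genes). It was 1 without E2 replicate 1 (1.27%) and 0 without E2 + TNFα replicate 2 (1.15%). Removal of GC and length trends left 3, 1 and 3 genes past the thresholds for E2 and TNFα against vehicle and the interaction (with the replicate block too), and the unwanted factor left 2, 1 and 1, with 4, 4 and 1 past the adjusted p. With a library left out these counts were 5 to 9, 10 to 11 and 11 to 13 past the thresholds, and 32 to 33, 30 to 33 and 30 to 35 past the adjusted p.

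With GC and length trends removed, 9 called genes turned direction for E2 against vehicle (6 of them called in the other direction), 7 for TNFα against vehicle (3) and 9 for the interaction (3), and with the unwanted factor 13, 6 and 8 (0 called). The cause was not tested. Besides ACSL3 (0.31 for TNFα against vehicle and 1.25 for E2), INSIG2 (1.04), CYP51A1 (0.86) and MSMO1 (0.80) for E2, those that turned include (values without and with the replicate block): SC5D in E2 + TNFα against E2 (-0.48 and -0.49), STARD4 (0.17 and 0.18), SC5D (0.45 and 0.45) and HMGCS1 (1.04 and 1.03) in E2 against vehicle, STARD4 in TNFα against vehicle (0.12 and 0.12), and in the interaction MSMO1 (-0.10 and -0.10), INSIG2 (-0.16 and -0.16), STARD4 (-0.31 and -0.31) and ACSL3 (-0.56 and -0.56). Those that the unwanted factor turned include IDI1 (1.26), SC5D (0.66) and HMGCS1 (1.79) in E2 against vehicle and MSMO1 in the interaction (-0.70). Library totals in place of TMM shifted the median of all genes by more than 0.1 (to -0.378 for E2 and -0.193 for TNFα against vehicle, 0.131 for E2 + TNFα against E2 and 0.312 for the interaction), and the unwanted factor moved that of the interaction to 0.113. The split of the 36 genes in E2 against vehicle (19 higher, 14 lower) became 24 and 6 with trends removed and 16 and 16 with library totals. That of the interaction (14 and 17) became 16 and 13 with library totals. Same-numbered libraries did not pair: of 18 pairs, 5 had a correlation of deviations over 0.1 (range -0.48 to 0.47), and 3 of 12 libraries correlated best with their own number.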
